A study of Mus musculus with 8 samples.

Results

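The genes described here were 10 calcium and phosphate transport genes, taken by name from a table of 55335 gene identifiers: the calcium pumps Atp2a2, Atp2a3, Atp2b1 and Atp2c1, the store entry genes Stim1, Stim2 and Orai1, and the phosphate transporters Slc20a1, Slc20a2 and Xpr1. All 10 were among the 10161 genes tested, which were those at 1 FPKM or more (fragments scaled to transcript length and library size) in at least 4 of 8 RNA-seq libraries. The libraries came from RAW264.7, a macrophage-like line established from a virus-induced mouse tumour, and each was made from cells kept for 3 days with a bone scaffold. In 4 libraries the scaffold was TABS, the Trio-Active bone scaffold, and in the other 4 it was HA/Mg, hydroxyapatite carrying Mg2+ ions; both groups carry the replicate numbers 5 to 8. Hydroxyapatite is a calcium phosphate mineral, so the 2 materials may differ in the ions they supply, but ion levels are not among the data used here. The components of TABS are not given in the labels, and cells without a scaffold were not analysed here, so every change below is TABS relative to HA/Mg. The library names carry H for TABS and L for HA/Mg, and if the titles had swapped the groups, each direction given here would turn round. The labels do not say whether replicates were separate cultures, and the p-values therefore measure a spread between libraries that may be technical. Calcium is kept very low in the cytosol by pumps that move it into the endoplasmic reticulum, into the Golgi and out of the cell. When the endoplasmic reticulum is depleted, STIM proteins in its membrane sense the loss and open ORAI channels in the plasma membrane, which is store-operated calcium entry, and in macrophages and osteoclast precursors the resulting signals reach calcineurin and NFAT. Phosphate enters mammalian cells mainly with sodium through the SLC20 transporters and leaves through XPR1.

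Atp2a3 rose and Atp2a2 fell with TABS, and the other 8 genes did not pass the test (limma on log2(FPKM + 1), adjusted p under 0.05 over all genes tested). That is 2 of 10, beside 18.1% of all genes tested (5.07% higher and 13.1% lower), so the share of the set that passed was near the background. Fitted changes were negative for 7 of the 10, beside 57.7% of all genes tested. The median log2 change of the set was -0.16, against -0.04 over all genes tested, and the median absolute change was 0.20 against 0.13. Neither call held under every setting: both were lost when each library's dependence on the length and GC content of transcripts was removed, and both were lost with the replicate number as a block (adjusted p = 0.111 for Atp2a2 and 0.116 for Atp2a3). Over all genes the split of calls moved with scaling: 515 were higher and 1327 lower in the values as deposited, 858 and 1059 after median-of-ratios scaling, 806 and 1192 after quantile normalization, and 251 and 1549 after rescaling to equal sums.

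Macrophage markers were present in every library, and those of 6 other cell types were at or near 0. All 7 macrophage markers were tested, with summed levels of 2168 to 2515 FPKM with TABS and 1832 to 2252 FPKM with HA/Mg. Of these 7, Csf1r and Cd68 rose with TABS (limma adjusted p = 0.0112 and 0.0197), beside 5.07% of all genes tested, and the other 5 did not pass. With 1 library left out, the call of Csf1r held in all 8 cases and that of Cd68 in 5 (limma adjusted p up to 0.0660). Summed levels of the fibroblast, osteoblast, T cell, B cell, neutrophil and endothelial lists were 0 to 0.560 FPKM with TABS and 0 to 0.439 FPKM with HA/Mg, and Bglap, Ibsp, Alpl, Cd3e, Cd4, Cd8a, Ms4a1 and S100a9 were listed at 0. Of 7 osteoclast markers only Dcstamp was tested, at a mean of 1.66 FPKM, Calcr was listed at 0, and the list summed to 2.16 to 3.80 FPKM with TABS and 2.03 to 2.55 FPKM with HA/Mg. The part of these markers in the results was not tested, and in bulk RNA fewer cells of a type and less RNA per cell cannot be told apart. Of the 8 libraries, only HA/Mg replicate 6 was examined for nearness to the other group. It lay nearer to the TABS mean than to the mean of HA/Mg replicates 5, 7 and 8 for 8 of the 10 genes, and for 57.8% of all genes tested (5877 of 10161). Results that rest on that library are given with and without it below. Leaving it out was 1 of 8 such omissions, it was singled out after the values were seen, and removing the library of a group that is nearest to the other group widens differences by construction.

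The promoters of Atp2a3 and Stim2 are printed because Atp2a3 was the member with the smallest p and Stim2 the one with the largest fitted change, in the opposite direction. Each is from RefSeq on GRCm38.p6 and runs from 250 bases before the annotated start to 50 after it, on the plus strand. Capitals mark the letters GGGCGG, the GC box bound by Sp1-family factors, on either strand, and matches that overlap run together.
Atp2a3, chr11:72960919-72961218: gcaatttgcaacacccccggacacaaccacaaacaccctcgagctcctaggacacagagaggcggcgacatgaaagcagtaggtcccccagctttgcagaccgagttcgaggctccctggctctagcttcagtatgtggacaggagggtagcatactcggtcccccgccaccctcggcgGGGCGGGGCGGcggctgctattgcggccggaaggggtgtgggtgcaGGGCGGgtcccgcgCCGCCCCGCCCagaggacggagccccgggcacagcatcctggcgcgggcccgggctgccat
Stim2, chr5:53998273-53998572: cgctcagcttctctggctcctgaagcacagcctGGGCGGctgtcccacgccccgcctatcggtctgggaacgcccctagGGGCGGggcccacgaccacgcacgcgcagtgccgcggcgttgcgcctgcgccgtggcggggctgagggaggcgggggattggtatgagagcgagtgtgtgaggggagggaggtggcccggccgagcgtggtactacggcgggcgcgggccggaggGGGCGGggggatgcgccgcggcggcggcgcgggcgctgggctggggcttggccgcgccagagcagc

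Both windows were rich in G and C, 68.3% for Atp2a3 and 76.7% for Stim2, against a median of 52.7% over 32851 mouse promoters of the same length. Atp2a3 held 5 GC box matches and Stim2 held 3. The RefSeq table held 11 promoters for 8 of the 10 genes, and 10 of the 11 had the GC box, which 35.7% of all promoters have. Of the 11, 9 were above the median GC content of all promoters, and promoters of like GC content were not compared. The CCAAT box (CCAAT) was present in 4 of the 11 and in 37.4% of all promoters, and the TATA box (TATAAA) in 1 of the 11 and in 13.6%. The core letters of NFAT sites, TGGAAA, occurred in 2 of the 11, 1 promoter each of Atp2b1 and Atp2c1, and in 21.4% of all promoters. The genes printed above had GC-rich starts and fitted changes of opposite sign, and that of Stim2 did not pass the test. Promoter content was not tested against the changes. A match of letters is a description, not a binding site.

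FPKM is a level per kilobase, so levels of different genes can be set side by side, although differences in recovery by length or GC content remain. Atp2a2 was the highest of the 10, at 96.6 ± 11.3 FPKM over the 8 libraries (mean ± SD), 3.71-fold above Atp2a3 at 26.0 ± 1.54 FPKM. Atp2a3 and Slc20a1 (22.5 ± 2.75 FPKM) overlapped, with Atp2a3 the higher in 6 of 8 libraries. Slc20a1 lay 3.16-fold above the next gene, Stim2, with no overlap. Stim2 (7.12 ± 2.25 FPKM), Slc20a2 (7.03 ± 0.813 FPKM), Orai1 (6.90 ± 1.11 FPKM) and Xpr1 (6.88 ± 0.826 FPKM) did not differ beyond their spread. Xpr1 exceeded Atp2c1 (5.22 ± 0.723 FPKM) in 8 of 8 libraries, and Atp2c1 exceeded Atp2b1 (4.44 ± 1.20 FPKM) in 7 of 8, although both pairs had overlapping ranges. Stim1 was the lowest at 2.11 ± 0.186 FPKM, 2.10-fold below Atp2b1 and in no library as high as it.

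**Figure D1:**
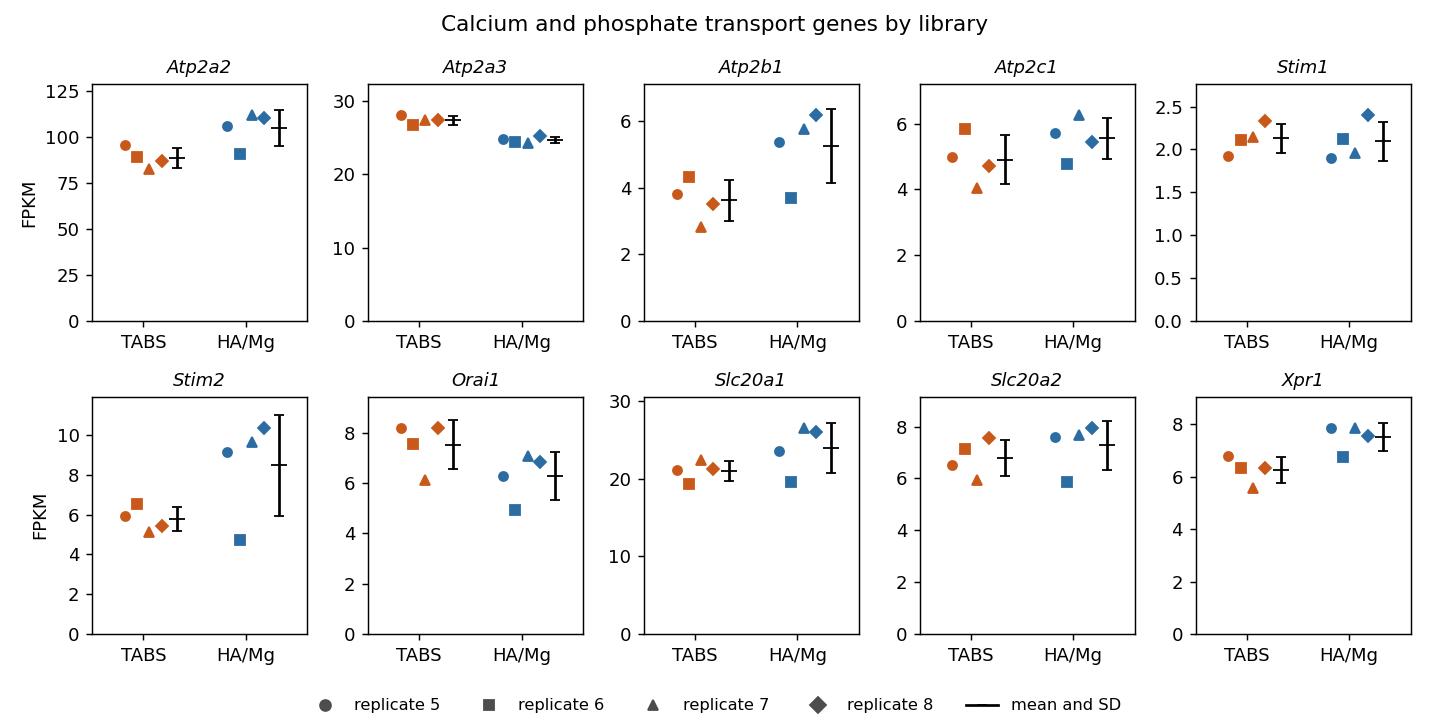
Level of each of the 10 genes in FPKM (vertical axes, from 0) in the 4 TABS libraries (left, orange) and the 4 HA/Mg libraries (right, blue), with marker shape for the replicate number and the mean with its SD in black. Atp2a3 was at 26.7 to 28.1 FPKM with TABS and 24.3 to 25.2 FPKM with HA/Mg, while the other 9 genes overlapped between the groups and the square of HA/Mg replicate 6 lay low for many of them.

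Among the calcium pumps, Atp2a2 (ENSMUSG00000029467), at bases 122453513 to 122502225 of GRCm38 chromosome 5, minus strand, encodes SERCA2, the widely expressed pump that refills the endoplasmic reticulum. It was at 95.3, 89.1, 82.5 and 86.9 FPKM in TABS replicates 5 to 8, against 106, 90.7, 112 and 110.4 FPKM in HA/Mg replicates 5 to 8. HA/Mg replicate 6 lay inside the TABS range and the other 3 HA/Mg libraries lay above all 4 TABS libraries. The means were 88.5 ± 5.32 FPKM with TABS and 104.7 ± 9.72 FPKM with HA/Mg (SD, n = 4 each), a log2 change of -0.24 ± 0.07 (SE, limma adjusted p = 0.0496). Leaving out any 1 library other than HA/Mg replicate 6 ended the call (adjusted p of 0.0588 to 0.133), as did median-of-ratios scaling (adjusted p = 0.0622), quantile normalization (adjusted p = 0.0626), testing with no mean-variance trend (adjusted p = 0.0623), testing every detected gene (adjusted p = 0.127) and a pseudocount of 0.1 (adjusted p = 0.0502). Without HA/Mg replicate 6 the log2 change was -0.30 ± 0.05 (adjusted p = 0.00611).

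Atp2a3 (ENSMUSG00000020788), at bases 72961169 to 72993044 of chromosome 11, plus strand, encodes SERCA3, a pump of the endoplasmic reticulum found in blood cells and some epithelia and known for a lower affinity for calcium than SERCA2. Its values were 28.1, 26.7, 27.5 and 27.3 FPKM in TABS replicates 5 to 8, against 24.9, 24.3, 24.3 and 25.2 FPKM in HA/Mg replicates 5 to 8. All 4 TABS libraries were above all 4 HA/Mg libraries, and HA/Mg replicate 6 stayed with its own group. It was the only 1 of the 10 genes whose groups did not overlap, as was the case for 23.1% of all genes tested. The means were 27.4 ± 0.607 FPKM with TABS and 24.7 ± 0.439 FPKM with HA/Mg (SD, n = 4 each), or 1.11-fold, with a log2 change of 0.15 ± 0.04 (SE, adjusted p = 0.0309). This was a small change with a small spread, the coefficient of variation being 2.22% with TABS and 1.78% with HA/Mg. The call held without TABS replicate 6 (adjusted p = 0.0488) or HA/Mg replicate 6 (adjusted p = 0.0304) and ended without any 1 of the other libraries (adjusted p of 0.0594 to 0.0949) and after rescaling to equal sums (adjusted p = 0.146). The genes whose log2(FPKM + 1) values were most like those of Atp2a3 over the 8 libraries were Oas3 (Pearson r = 0.97, at 40.0 ± 1.62 FPKM with TABS and 30.7 ± 1.09 FPKM with HA/Mg), Trp53inp2 (r = 0.97) and Tmem80 (r = 0.97), given as a description.

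Atp2b1 (ENSMUSG00000019943), at bases 98914406 to 99026143 of chromosome 10, plus strand, encodes PMCA1, the pump that exports calcium across the plasma membrane. It was at 3.81, 4.33, 2.83 and 3.50 FPKM in TABS replicates 5 to 8, against 5.39, 3.68, 5.75 and 6.19 FPKM in HA/Mg replicates 5 to 8. HA/Mg replicates 5, 7 and 8 were above every TABS library, and HA/Mg replicate 6 was inside the TABS range. The log2 change was -0.43 ± 0.14 (SE, adjusted p = 0.0665), in absolute size above 96.8% of all genes tested, and it was -0.56 ± 0.11 without HA/Mg replicate 6 (adjusted p = 0.00803). Atp2c1 (ENSMUSG00000032570), at bases 105403539 to 105527319 of chromosome 9, minus strand, encodes SPCA1, which loads the Golgi with calcium and manganese. Atp2c1 stood at 4.98, 5.85, 4.05 and 4.71 FPKM in TABS replicates 5 to 8, against 5.72, 4.78, 6.27 and 5.43 FPKM in HA/Mg replicates 5 to 8. The groups were interleaved (log2 change -0.15 ± 0.10, adjusted p = 0.3005), and the fitted change ranged from -0.23 (without TABS replicate 6) to -0.08 (without TABS replicate 7) with 1 library left out and was 0.02 with the length and GC trends removed. Its exons share up to 1138 bases with Aste1 on the other strand, which was at 0.476 FPKM with TABS and 0.531 FPKM with HA/Mg, and whether counting used strand is not stated in the labels.

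Of the store entry genes, Stim1 (ENSMUSG00000030987), at bases 102267806 to 102437319 of chromosome 7, plus strand, encodes the main sensor of calcium in the endoplasmic reticulum. Its values were 1.92, 2.10, 2.15 and 2.34 FPKM in TABS replicates 5 to 8, against 1.90, 2.13, 1.95 and 2.41 FPKM in HA/Mg replicates 5 to 8. The groups covered overlapping ranges, with a log2 change of 0.02 ± 0.07 (SE, adjusted p = 0.898). Stim2 (ENSMUSG00000039156), at bases 53998499 to 54121057 of chromosome 5, plus strand, encodes the related sensor that responds to smaller losses of stored calcium and helps to set its resting level. It was at 5.95, 6.52, 5.13 and 5.44 FPKM in TABS replicates 5 to 8, against 9.15, 4.74, 9.67 and 10.4 FPKM in HA/Mg replicates 5 to 8. HA/Mg replicate 6 was the lowest of all 8 libraries and the other 3 HA/Mg libraries were the highest. The means were 5.76 ± 0.609 FPKM with TABS and 8.49 ± 2.55 FPKM with HA/Mg (SD, n = 4 each), a log2 change of -0.44 ± 0.19 that did not pass (adjusted p = 0.132) although its absolute size was above that of 97.2% of all genes tested. Without HA/Mg replicate 6 the HA/Mg mean was 9.73 ± 0.618 FPKM (SD, n = 3) and the log2 change was -0.67 ± 0.08 (limma adjusted p = 0.00369).

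Orai1 (ENSMUSG00000049686), at bases 123015074 to 123030456 of chromosome 5, plus strand, encodes the pore of the store-operated channel. It stood at 8.20, 7.55, 6.14 and 8.21 FPKM in TABS replicates 5 to 8, against 6.29, 4.92, 7.06 and 6.83 FPKM in HA/Mg replicates 5 to 8. TABS replicates 5, 6 and 8 were above all 4 HA/Mg libraries and TABS replicate 7 lay below 3 of them. The log2 change was 0.23 ± 0.11 (SE, adjusted p = 0.176), and it passed under quantile normalization only (adjusted p = 0.0442) among the 21 alternatives. Here HA/Mg replicate 6 lay on the far side from TABS, and the change was 0.14 ± 0.10 without it (adjusted p = 0.302).

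For phosphate import, Slc20a1 (ENSMUSG00000027397), at bases 129198764 to 129211616 of chromosome 2, plus strand, encodes the sodium-phosphate cotransporter PiT-1. It was at 21.1, 19.3, 22.5 and 21.2 FPKM in TABS replicates 5 to 8, against 23.6, 19.7, 26.6 and 26.1 FPKM in HA/Mg replicates 5 to 8. Only HA/Mg replicate 6 lay among the TABS values. The means were 21.0 ± 1.29 FPKM with TABS and 24.0 ± 3.18 FPKM with HA/Mg (SD, n = 4 each), with a log2 change of -0.17 ± 0.09 (SE, adjusted p = 0.194) and of -0.26 ± 0.06 without HA/Mg replicate 6 (adjusted p = 0.0168). Slc20a2 (ENSMUSG00000037656), at bases 22476788 to 22569612 of chromosome 8, plus strand, encodes the related cotransporter PiT-2. Its values were 6.53, 7.14, 5.96 and 7.54 FPKM in TABS replicates 5 to 8, against 7.60, 5.87, 7.66 and 7.96 FPKM in HA/Mg replicates 5 to 8. The groups overlapped through HA/Mg replicate 6, the lowest library (log2 change -0.08 ± 0.10, adjusted p = 0.567), and the gene did not pass without it either (log2 change -0.17, adjusted p = 0.116). Its log2 change was -0.03 without TABS replicate 7. Its exons share up to 95 bases with Smim19 on the other strand, at 8.09 FPKM with TABS and 7.72 FPKM with HA/Mg.

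Phosphate export was represented by Xpr1 (ENSMUSG00000026469), at bases 155275701 to 155417415 of chromosome 1, minus strand, whose product is gated by inositol pyrophosphates and also serves as a receptor for some mouse leukaemia viruses. It was at 6.80, 6.33, 5.57 and 6.32 FPKM in TABS replicates 5 to 8, against 7.86, 6.73, 7.87 and 7.56 FPKM in HA/Mg replicates 5 to 8. One pair overlapped, TABS replicate 5 being just above HA/Mg replicate 6. The means were 6.25 ± 0.510 FPKM with TABS and 7.51 ± 0.537 FPKM with HA/Mg (SD, n = 4 each), a log2 change of -0.23 ± 0.07 at the edge of the threshold (adjusted p = 0.0513). The gene passed without HA/Mg replicate 6 (adjusted p = 0.0164), with array weights (adjusted p = 0.00882) and among genes at 1 FPKM or more in all 8 libraries (adjusted p = 0.0498).

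Without HA/Mg replicate 6 the fit called 6 of the 10 genes, beside 32.7% of all genes tested: Atp2a3 higher with TABS (8.54% of all genes), and Atp2a2, Atp2b1, Stim2, Slc20a1 and Xpr1 lower (24.1% of all genes). The groups then did not overlap for 7 of the 10 genes, beside 44% of all genes tested. With any 1 of the other 7 libraries left out, 0 or 1 of the 10 passed limma, beside 429 to 1227 of the 10161 genes tested. In those fits 4 to 6 of the 10 had an unadjusted p under 0.05, beside 27.9% to 34.4% of all genes. The number of genes called therefore turned on a single HA/Mg library more than on any choice of scaling, under which it was 1 or 2. Which genes were called did change with scaling. It was Atp2a3 alone after median-of-ratios scaling, Atp2a2 alone after rescaling to equal sums, and Atp2a3 and Orai1 after quantile normalization.

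**Figure D2:**
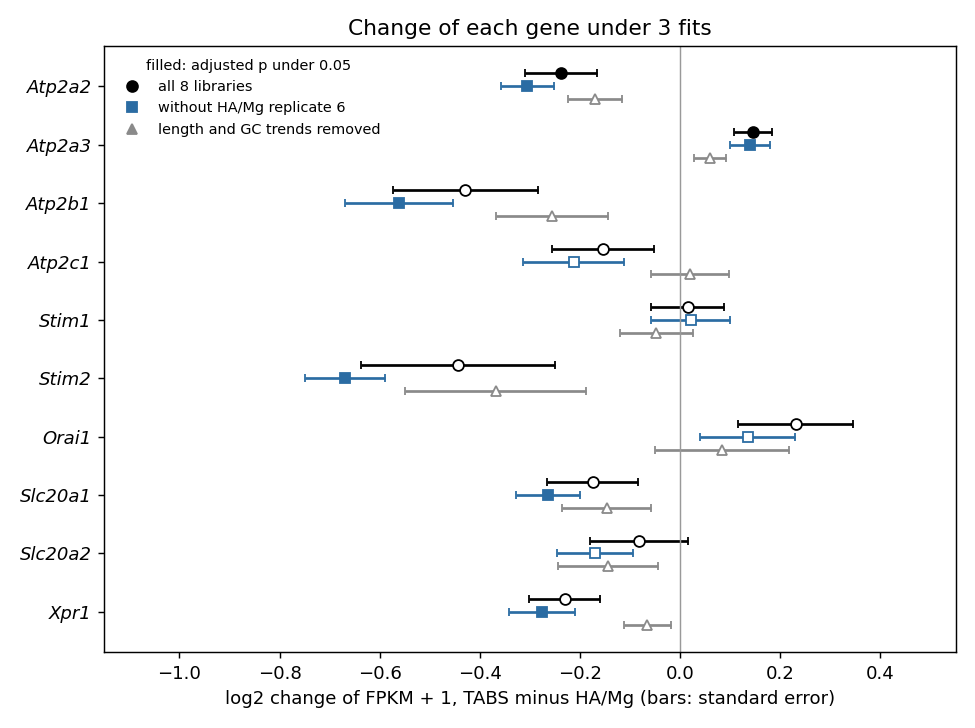
Log2 change of FPKM + 1, TABS minus HA/Mg (horizontal axis), with its standard error for each of the 10 genes in 3 fits: all 8 libraries (black circles), without HA/Mg replicate 6 (blue squares) and with length and GC trends removed (grey triangles). Filled symbols have an adjusted p under 0.05, which 2 genes reached with all 8 libraries, 6 without HA/Mg replicate 6 and 0 with the trends removed.

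The balance within pairs of related genes was compared as the share of their summed FPKM in each library. Atp2a3 made up 22.8%, 23.0%, 24.97% and 23.9% of SERCA transcripts in TABS replicates 5 to 8, against 19.0%, 21.2%, 17.8% and 18.6% in HA/Mg replicates 5 to 8. Every TABS library was above every HA/Mg library, HA/Mg replicate 6 included. The means were 23.7% ± 0.988 with TABS and 19.1% ± 1.44 with HA/Mg (SD, n = 4 each), a difference of 4.53 percentage points. Its exact permutation p was 0.0286 (two-sided), which 4 against 4 libraries cannot go below, and 0.0857 adjusted over the 3 shares examined. The share does not depend on how libraries are scaled to each other, and it differed by 2.71 points with the length and GC trends removed (exact permutation p = 0.0286). It is built from the same values as the calls of Atp2a2 and Atp2a3, which had opposite signs, so it adds no independent support. Shares of gene pairs over all genes were not computed, and the groups did not overlap for 23.1% of single genes tested.

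Stim2 made up 75.6%, 75.6%, 70.5% and 69.98% of STIM transcripts in TABS replicates 5 to 8, against 82.8%, 69.0%, 83.2% and 81.2% in HA/Mg replicates 5 to 8. It was the more abundant sensor in every library, by FPKM. The means of 72.9% ± 3.10 with TABS and 79.1% ± 6.73 with HA/Mg differed by -6.13 points (SD, n = 4 each, exact permutation p = 0.171, adjusted 0.257), and by -9.47 points without HA/Mg replicate 6 (exact permutation p = 0.0286). That last p is the lowest an exact permutation can give with that library left out. The library was singled out after the values were seen, so no conclusion is drawn from that p. Slc20a2 made up 24.4% ± 2.73 of SLC20 transcripts with TABS and 23.3% ± 0.843 with HA/Mg (SD, n = 4 each, exact permutation p = 0.4, adjusted 0.4). By FPKM, Slc20a1 thus gave most SLC20 transcripts in both groups.

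**Figure D3:**
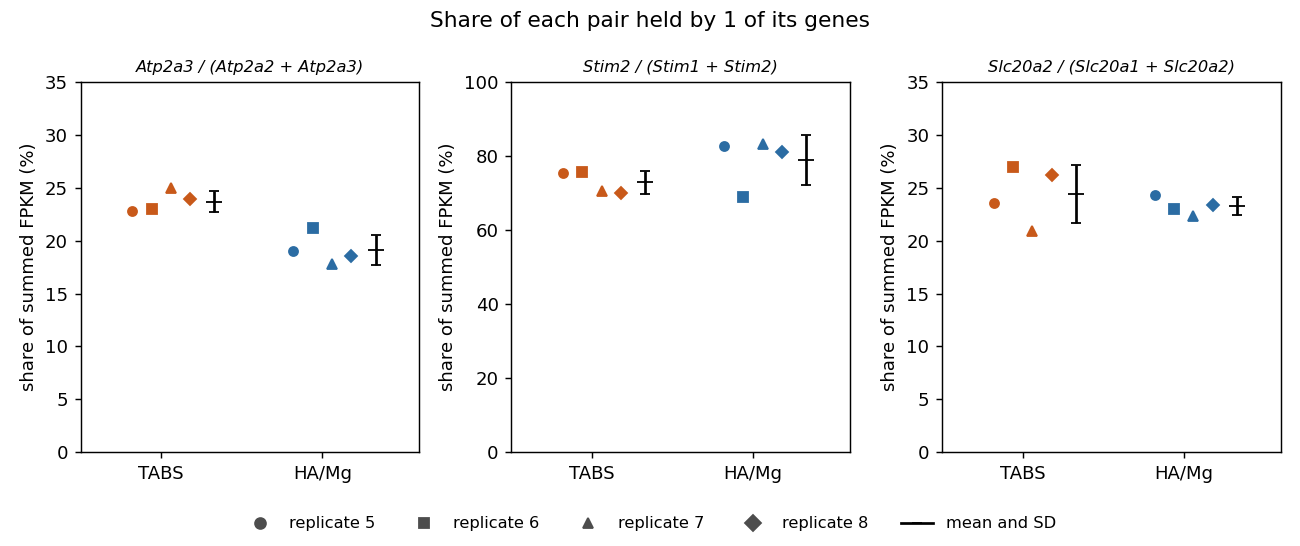
Share of summed FPKM (%, vertical axes from 0) held by Atp2a3 of the SERCA pair, Stim2 of the STIM pair and Slc20a2 of the SLC20 pair, in TABS libraries (left, orange) and HA/Mg libraries (right, blue), with the mean and SD in black. The Atp2a3 share was 22.8% to 24.97% with TABS and 17.8% to 21.2% with HA/Mg without overlap, and in the STIM panel HA/Mg replicate 6 (square) lay at 69.0%, below the rest of its group.

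The changes of the 10 genes were ordered much like the GC content of their transcripts. Orai1 (58.6% GC in its longest transcript) and Atp2a3 (57.3%) had the highest positive changes, Stim1 (54.5%) and Slc20a2 (53.3%) were near 0, and Slc20a1 (48.3%), Atp2a2 (48.2%), Stim2 (47.4%), Xpr1 (43.6%), Atp2b1 (42.6%) and Atp2c1 (41.2%) had negative changes. Spearman's rho between GC content and log2 change was 0.76 over the 10 genes and 0.54 over 10157 genes tested, and between transcript length and log2 change it was -0.66 and -0.31. These are correlations across genes, which share the same 8 libraries. In 5 classes of all genes with equal numbers, cut by GC content, the median log2 change was -0.20 in the class lowest in GC, which held Atp2b1, Atp2c1 and Xpr1, and 0.08 in the highest, which held Atp2a3 and Orai1. Set against their own class, Stim2 (-0.44 against a class median of -0.12), Atp2b1 (-0.43 against -0.20), Atp2a2 (-0.24 against -0.03), Slc20a1 (-0.17 against -0.03) and Slc20a2 (-0.08 against 0.04) lay below the 25th percentile of the class, and Orai1 (0.23 against 0.08) lay above the 75th. Xpr1 (-0.23 against -0.20), Atp2c1, Stim1 and Atp2a3 (0.15 against 0.08) lay between the 25th and 75th percentiles.

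With limma, removing the length and GC trends left 0 of the 10 genes past the threshold, beside 7.71% of all genes tested, and 2 of the 10 at an unadjusted p under 0.05, beside 28.5% of all genes. The fitted change of Xpr1 shrank to -0.07 ± 0.05 (SE, adjusted p = 0.385), that of Atp2a3 to 0.06 ± 0.03 (adjusted p = 0.260), and that of Orai1 to 0.08 ± 0.13 (adjusted p = 0.717). Larger parts remained for Slc20a1 (-0.15 ± 0.09, adjusted p = 0.311), Stim2 (-0.37 ± 0.18, adjusted p = 0.217), Atp2a2 (-0.17 ± 0.05, adjusted p = 0.0820) and Atp2b1 (-0.26 ± 0.11, adjusted p = 0.171). The fitted change of Slc20a2 was further from 0 than on the deposited values (-0.14 ± 0.10, adjusted p = 0.374). Whether the trend arose in the libraries or in the cells was not tested.

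**Figure D4:**
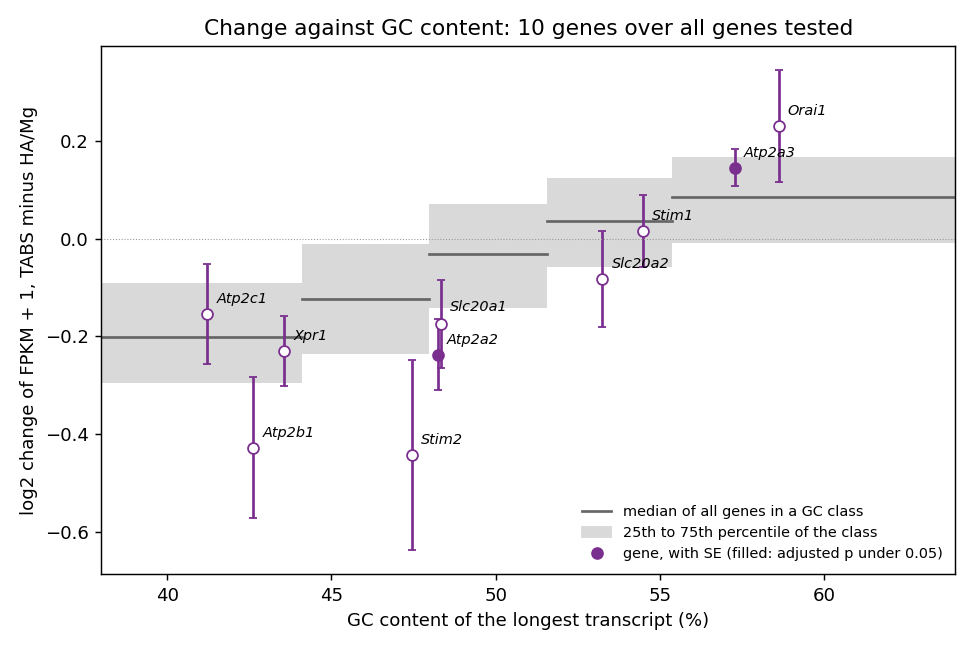
Log2 change of FPKM + 1, TABS minus HA/Mg (vertical axis), against the GC content of the longest transcript (%, horizontal axis) for the 10 genes (purple, with SE, filled where the adjusted p was under 0.05). Grey lines and bands give the median and the 25th to 75th percentiles of all genes tested in 5 equal GC classes, with medians from -0.20 in the lowest class to 0.08 in the highest, and 5 of the genes, Stim2, Atp2b1, Atp2a2, Slc20a1 and Slc20a2, lie below their bands.

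The wider machinery was described with 8 lists of 120 other genes of calcium and phosphate handling, of which 81 were tested. With TABS 2 rose, 9 fell and 70 did not pass, or 13.6% called beside 18.1% of all genes tested, and the median log2 change was -0.05, against -0.04 over all genes. Without HA/Mg replicate 6, 4 were higher and 18 lower (27.2%, beside 32.7% of all genes), and with the length and GC trends removed 1 was higher and 5 lower (7.41%, beside 7.71%). These shares were at or below the background. With the replicate number as a block 0 of all genes tested passed, so none of the calls below held in that fit.

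Calcium-binding proteins of the secretory pathway gave 3 genes that fell of 8 tested, beside 13.1% of all genes tested (median log2 change -0.14). They were Canx, Rcn1 and Rcn2, and all 3 calls held with the trends removed. Canx, the calcium-dependent lectin chaperone calnexin, was at 140.1, 141, 133 and 142 FPKM in TABS replicates 5 to 8, against 179.6, 163, 175 and 169 FPKM in HA/Mg replicates 5 to 8 (log2 change -0.30 ± 0.04, adjusted p = 0.00859). Rcn1, a reticulocalbin of the endoplasmic reticulum, was at 6.13 ± 0.138 FPKM with TABS and 7.83 ± 0.294 FPKM with HA/Mg (SD, n = 4 each, limma adjusted p = 0.00940), and Rcn2 at 10.97 ± 0.808 FPKM with TABS and 14.7 ± 1.35 FPKM with HA/Mg (limma adjusted p = 0.0139, or 0.0509 without HA/Mg replicate 5). Calr, the related calcium-binding chaperone calreticulin, did not pass (log2 change -0.03, adjusted p = 0.751).

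Among genes of calcineurin, NFAT and calmodulin signalling 3 of 21 fell, beside 13.1% of all genes tested, and 18 did not pass (median log2 change -0.09). Calm2, 1 of several genes that encode the same calmodulin protein, was at 52.4, 62.5, 54.9 and 60.4 FPKM in TABS replicates 5 to 8, against 72.8, 77.2, 85.6 and 74.6 FPKM in HA/Mg replicates 5 to 8 (log2 change -0.42 ± 0.07, adjusted p = 0.00987). Its groups did not overlap, and the call held without any 1 library and with the trends removed. Ppp3r1, the regulatory subunit of calcineurin, was at 26.7 ± 1.66 FPKM with TABS and 32.1 ± 2.40 FPKM with HA/Mg (SD, n = 4 each, limma adjusted p = 0.0309), and Nfatc3, a transcription factor that calcineurin activates, at 4.48 ± 0.241 FPKM with TABS and 5.92 ± 0.943 FPKM with HA/Mg (limma adjusted p = 0.0490). Both lost their calls with the trends removed (adjusted p = 0.1497 and 0.127) and when most of the libraries were left out singly. The exceptions were TABS replicate 8 and HA/Mg replicate 6 for Ppp3r1 (adjusted p otherwise up to 0.0918) and HA/Mg replicate 6 for Nfatc3 (adjusted p otherwise up to 0.133). Nfatc1, the NFAT member central to osteoclast formation, did not pass (log2 change -0.14, adjusted p = 0.1802).

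Of 13 tested release channels and other calcium channels and exchangers 2 rose, beside 5.07% of all genes tested, and 11 did not pass (median log2 change 0.06). Trpv2, a calcium-permeable channel of macrophages, was at 21.8 ± 1.10 FPKM with TABS and 18.2 ± 1.11 FPKM with HA/Mg (SD, n = 4 each, limma adjusted p = 0.0222), and Piezo1, a channel opened by mechanical force, at 14.8 ± 0.618 FPKM with TABS and 12.4 ± 0.675 FPKM with HA/Mg (limma adjusted p = 0.0208). Neither gene overlapped between the groups, and both missed the threshold with the trends removed (adjusted p = 0.0748 and 0.0670) and without some libraries. These were TABS replicates 5 and 6 and HA/Mg replicate 5 for Trpv2 (adjusted p of 0.0516 to 0.0693), and TABS replicates 5 and 7 and HA/Mg replicates 5 and 7 for Piezo1 (adjusted p of 0.0511 to 0.0666). In mitochondrial calcium handling 1 of 11 fell, beside 13.1% of all genes tested. Micu2, a gatekeeper of the mitochondrial calcium uniporter, was at 19.8, 20.3, 19.2 and 20.0 FPKM in TABS replicates 5 to 8, against 23.1, 23.7, 23.3 and 22.4 FPKM in HA/Mg replicates 5 to 8 (adjusted p = 0.0135). That call held without any 1 library and with the trends removed. The pore gene Mcu did not pass (log2 change -0.07, adjusted p = 0.349).

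Closest to the 10 genes in role, 1 of 3 tested pumps and pump regulators fell, beside 13.1% of all genes tested. It was Tmem165, a Golgi protein of manganese and calcium exchange, at 9.63 ± 0.994 FPKM with TABS and 12.8 ± 1.70 FPKM with HA/Mg (SD, n = 4 each, log2 change -0.37, limma adjusted p = 0.0359, or -0.41 and 0.0582 with the trends removed, and adjusted p of 0.0559 to 0.101 without any 1 library other than TABS replicate 6 or HA/Mg replicate 6). Of 6 store-operated entry partners 0 passed the limma test on the deposited values (median log2 change -0.09), and 3 had an unadjusted p under 0.05, beside 36.4% of all genes tested. The lowest p among them was that of Esyt1, a tether between the endoplasmic reticulum and the plasma membrane, at 36.4 ± 1.19 FPKM with TABS and 33.2 ± 0.947 FPKM with HA/Mg (limma adjusted p = 0.0535, or 0.0442 with the trends removed). Of 8 phosphate carriers and phosphate release enzymes 0 passed limma and 2 had an unadjusted p under 0.05, beside the same 36.4% (median log2 change -0.08), the lowest p being that of Slc17a5, whose product carries sialic acid out of lysosomes although its family is named for phosphate transport (11.7 ± 2.18 FPKM with TABS and 14.2 ± 0.634 FPKM with HA/Mg, limma adjusted p = 0.112). Of 11 genes of inositol pyrophosphate metabolism and XPR1 partners 1 fell, beside 13.1% of all genes tested. It was Nudt4, a phosphohydrolase that degrades inositol pyrophosphates, at 8.72 ± 0.661 FPKM with TABS and 10.2 ± 0.331 FPKM with HA/Mg (limma adjusted p = 0.0452, or 0.158 with the trends removed and 0.0824 to 0.124 without any 1 library other than TABS replicate 8 or HA/Mg replicate 6).

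**Figure D5:**
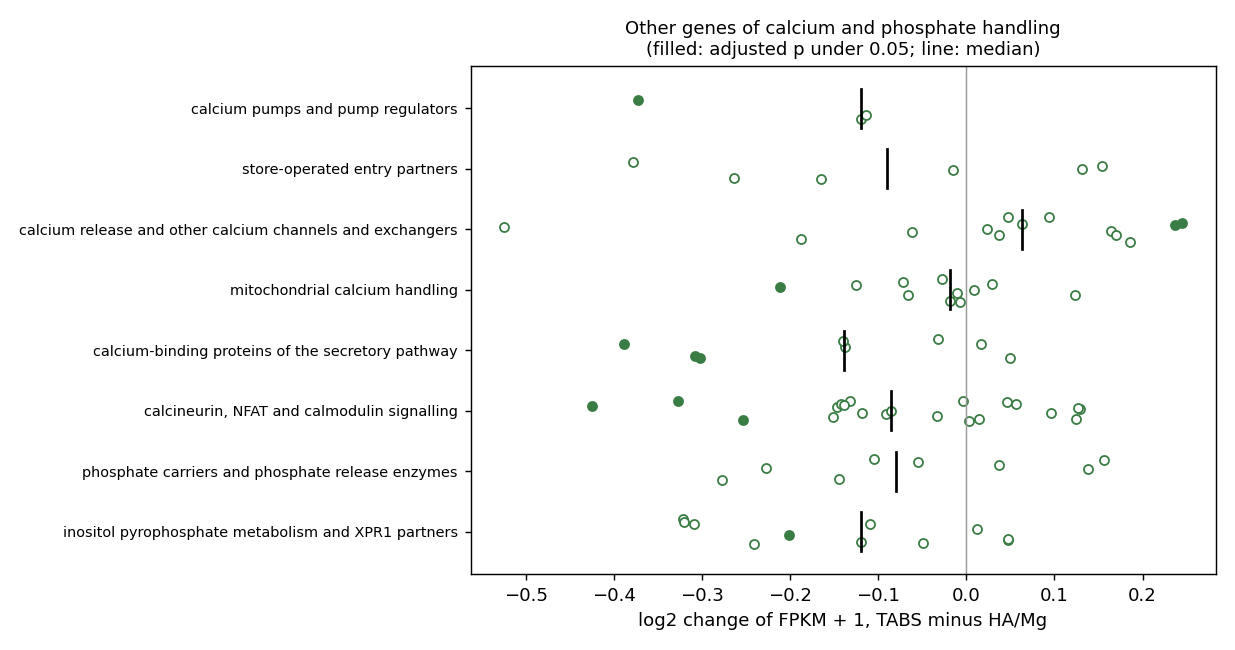
Log2 change of FPKM + 1, TABS minus HA/Mg (horizontal axis), of the 81 tested genes in 8 lists of calcium and phosphate handling that do not include the 10 genes. Each circle is a gene, filled where the adjusted p was under 0.05, and the black line is the median of the list, from -0.14 for calcium-binding proteins of the secretory pathway to 0.06 for calcium channels and exchangers.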

How the data were processed

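RNA was sequenced from 8 libraries of RAW264.7 cells, 4 TABS and 4 HA/Mg, grouped and numbered by sample title. Per the labels' protocols, TRIzol was used to extract RNA of integrity number above 7, and NEBNext Ultra RNA libraries were read as 150-base pairs on a NovaSeq. The submitters' processing notes name fastp, STAR, DESeq2 and GRCm38. Versions, step order, gene annotation and the program behind the FPKM table are not stated there.

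The authors deposited FPKM (per kilobase of transcript and per library total), so abundant transcripts lower all other values and differences in recovery by length or GC content remain. Low values of genes with 1 transcript were whole multiples of a common step, within 0.05 step, for only 30.9% to 33.5% of values, so depth is unknown and no count test was run. Libraries had 9908 to 10280 genes at 1 FPKM or more. GENCODE M21 (GRCm38) matched 55154 of 55335 identifiers and supplied symbols, positions, length and GC content.

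TABS was compared with HA/Mg with limma 3.58.1 in R 4.3.3 (empirical Bayes with a mean-variance trend) on log2(FPKM + 1). Tests were two-sided, with p adjusted by Benjamini-Hochberg over 10161 genes. Changes are TABS minus HA/Mg on that scale, which understates those of low genes. Shares of gene pairs were compared by exact permutation, over 70 assignments with all 8 libraries. The members, lists and tests were chosen with earlier results of these data known. Named genes are all 10 members, up to 3 called genes per list with the largest change (or the lowest p where none was called) and the 3 genes most like the member of lowest p. Calr, Nfatc1 and Mcu were added with their values already seen. Settings varied were pseudocounts of 0.1 and 0.5, filters, scalings, moderation, array weights, a block for replicate number, removal of the trends of each library on length and GC content (splines with 4 degrees of freedom), and each library left out. The fit was tested on simulated data with independent noise for each gene, without trends on length or GC content and without an outlying library. That simulation therefore does not bear on how such trends or a single library move the calls.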

Additional observations from a re-analysis of the deposited data

Results flagged for a closer look

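In HA/Mg replicate 6 the Stim2 share of STIM transcripts was 69.0%, while HA/Mg replicates 5, 7 and 8 lay at 81.2% to 83.2%, a gap that passed the critical value for an outlying sample in a group of 4. It was the only 1 of 26 groups of values examined (10 genes and 3 shares in both groups) to do so, and chance flags about 1 in 20. The same library also lay nearer to TABS for 8 of the 10 genes, Stim2 among them, beside 57.8% of all genes tested. The cause was not tested.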

How the results depend on the processing

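Over 21 alternatives, Atp2a3 was called in 11 and Atp2a2 in 6, with one sign in all 21. The 10 genes called were 1 with a pseudocount of 0.1, with no filter on low values, with median-of-ratios scaling, with rescaling to equal sums and with no mean-variance trend, 6 with array weights, and 0 with the length and GC trends removed. Leaving out 1 library gave 0 to 6. Over all 10161 genes tested, calls numbered 1829 with a pseudocount of 0.1 and 1722 with no mean-variance trend. They numbered 1917 with median-of-ratios scaling and 1800 with rescaling to equal sums. Array weights gave 3532 calls and removal of the trends 783. With no filter, 808 of 22906 genes were called. With 1 library left out, calls numbered 429 (without HA/Mg replicate 5) to 3320 (without HA/Mg replicate 6). With the replicate number as a block 0 of the 10 genes and 0 of all genes were called (smallest adjusted p 0.0589), with 5 of the 10 and 2987 of all at an unadjusted p under 0.05, and with the block and the trends removed 0 of the 10 and 2 of all. Whether the numbers pair the libraries was not settled. Deviations from the group means correlated at 0.01, -0.27, -0.16 and 0.13 between libraries numbered 5, 6, 7 and 8. TABS replicate 5 correlated best with HA/Mg replicate 7 (0.12), but TABS replicate 8 correlated best with HA/Mg replicate 8. The highest value was 0.38, between TABS replicate 7 and HA/Mg replicate 6. Such correlations cannot show how the libraries were made. The difference in Atp2a3 share, 4.53 points, had p = 0.125 in a paired sign-flip test (exact, n = 4 pairs), which can go no lower, and ranged from 4.09 to 5.21 points with 1 library left out, where p was 0.0286 or 0.0571 (without TABS replicate 7 or 8, exact permutation). The difference in Stim2 share ranged from -9.47 to -4.76 points with 1 library left out and was -3.95 points with the trends removed (exact permutation p = 0.286). Signs turned for the Slc20a2 share (-0.0481 points with the trends removed), for Atp2c1 (0.0199 with the trends removed, also with the block) and for Stim1, which was -0.0189 after rescaling to equal sums, -0.0476 with the trends removed, with or without the block, and -0.0159 to 0.0623 with 1 library left out (negative without TABS replicate 8, HA/Mg replicate 5 or HA/Mg replicate 7). None of these was called. The causes of these shifts were not tested. Depth is unknown, so the precision of low genes such as Stim1 rests on the spread between libraries.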
